A study of Homo sapiens with 2 samples.

Results

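Transfer RNA (tRNA) genes were described in 2 libraries of chromatin immunoprecipitation followed by sequencing (ChIP-seq), made with an antibody to TCF19 from Ishikawa cells, an established endometrial cancer line. The control library came from cells that received a control lentivirus and carry the genotype label negative control. The other came from cells that received a lentivirus driving TCF19 over-expression. In both, infected cells were selected with puromycin, and the labels name no clone, promoter or time after selection. Every RefSeq gene of biotype tRNA on chromosomes 1 to 22 and X was a member, which gave 429 genes among 58419 RefSeq genes of all types on those chromosomes. A tRNA gene counted as having a summit when the highest point of a called peak lay within 1000 bp of it. The 429 members were chosen by biotype alone, but tRNA genes as a class were selected on the counts of summits within 1000 bp in these same lists, so those counts are a description. Each condition has 1 library. Therefore no difference has a replicate check, no test was run, and the 95% intervals given below cover counting error only.

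tRNA genes encode the adaptors that carry amino acids to the ribosome, and are transcribed by RNA polymerase III rather than by RNA polymerase II. Their promoter lies inside the gene: the A box and B box are bound by the factor TFIIIC, which brings TFIIIB, which in turn places the polymerase. Many tRNA genes are identical copies of each other, and they sit in clusters, of which that on the short arm of chromosome 6 is the best known. A gene symbol such as TRP-TGG3-5 gives the amino acid in 1-letter code (P, proline), the anticodon (TGG), the family number, and the copy number within that family. TCF19 carries a forkhead-associated domain and a plant homeodomain finger, the latter a module that reads histone tails.

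Sequence was held for 14 tRNA genes that lie whole inside RefSeq promoter windows of neighbouring protein-coding or long non-coding RNA genes (RefSeq, GRCh38.p14, windows of 300 bases). The B box core, searched as GTTCNANNC on both strands, was found in all 14 and is in capitals below. The same letters were found in 2616 of the 34943 promoter windows, or 7.49%, so a match is a description and not a site of binding. The first 4 are shown because each pair has the same sequence and a different record of summits. TRP-TGG3-2 lies at chr14:20684016-20684087, TRP-TGG3-5 at chr16:3188094-3188165, TRH-GTG1-3 at chr1:148281365-148281436 and TRH-GTG1-9 at chr15:45201151-45201222, all on the plus strand. The other two, TRN-GTT4-1 at chr1:16889677-16889750 on the plus strand and TRN-GTT6-1 at chr1:143735920-143735993 on the minus strand, differ by 3 of 74 bases, and both had a summit in each library.
TRP-TGG3-2: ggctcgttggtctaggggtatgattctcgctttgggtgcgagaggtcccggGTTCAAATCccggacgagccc
TRP-TGG3-5: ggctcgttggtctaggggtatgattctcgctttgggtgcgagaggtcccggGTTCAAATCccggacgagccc
TRH-GTG1-3: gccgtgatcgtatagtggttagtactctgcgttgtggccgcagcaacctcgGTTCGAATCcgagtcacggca
TRH-GTG1-9: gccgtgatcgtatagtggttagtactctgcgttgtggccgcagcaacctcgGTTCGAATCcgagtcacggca
TRN-GTT4-1: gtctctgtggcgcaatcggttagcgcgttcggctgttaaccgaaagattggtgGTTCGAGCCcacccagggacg
TRN-GTT6-1: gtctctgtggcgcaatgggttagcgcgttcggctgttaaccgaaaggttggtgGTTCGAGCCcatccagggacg

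TRP-TGG3-2 and TRP-TGG3-5 differed at 0 of 72 bases. The chromosome 14 copy had its strongest summit at 14 reads in the control library and 15 in the over-expression library. These lay on opposite sides of the gene, 385 and 941 bp from it, and are not the same peak. The chromosome 16 copy had none in the control library, whose nearest summit was 17359 bp away, and 19 reads in the over-expression library. TRH-GTG1-3 and TRH-GTG1-9 also differed at 0 of 72 bases. The chromosome 1 copy had 6 reads in the control library and 7 in the over-expression library, while the chromosome 15 copy had no summit within 1000 bp in either. The reads of a summit are its pileup, the number of extended reads that overlap it, recovered from the authors' fold enrichment and p-value. Reads given for a gene are those of its strongest summit in each library, and the places can differ between libraries. In these pairs the gene itself was the same and the record of summits was not.

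None of the 14 whole-gene windows held a summit, and 4 of all 29 windows that overlap a tRNA gene did. Among those 4 is a window at chr1:16889429-16889728, shown on the plus strand with the first 52 bases of TRN-GTT4-1 in capitals. The control summit, of 34 reads, is at base 93 of the window, 156 bp before the gene. An over-expression summit of 29 reads is at base 44, 205 bp before it. A further window, at chr15:89334775-89335074 between TRR-TCG1-1 and POLG (the mitochondrial DNA polymerase), held a summit in the over-expression library alone, with 16 reads at base 178. It is shown on the plus strand and its last 2 bases, in capitals, are the start of the tRNA gene, 121 bp from the summit.
TRN-GTT4-1 flank: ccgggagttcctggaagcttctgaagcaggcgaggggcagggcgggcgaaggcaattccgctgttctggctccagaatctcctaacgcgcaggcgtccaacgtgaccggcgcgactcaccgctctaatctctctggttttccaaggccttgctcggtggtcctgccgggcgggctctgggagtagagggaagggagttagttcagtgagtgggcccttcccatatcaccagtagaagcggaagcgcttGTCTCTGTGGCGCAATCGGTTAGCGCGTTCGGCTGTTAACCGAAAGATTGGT
TRR-TCG1-1 flank: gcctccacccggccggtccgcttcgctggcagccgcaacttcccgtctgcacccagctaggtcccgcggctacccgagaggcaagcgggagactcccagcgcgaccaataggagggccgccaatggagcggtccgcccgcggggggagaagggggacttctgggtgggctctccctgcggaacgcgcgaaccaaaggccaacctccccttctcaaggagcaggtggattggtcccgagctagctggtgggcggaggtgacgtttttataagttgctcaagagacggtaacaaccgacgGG

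The control list held 169542 summits on chromosomes 1 to 22 and X and the over-expression list 111569. The genome-average background was 1.58 reads at a point in the control library and 1.43 in the over-expression library, a depth ratio of 0.903. The label check at the TCF19 gene gave 0 summits in the control library and 3 in the over-expression library, the highest of 143 reads. Reads from the lentiviral copy and from bound chromatin cannot be told apart there.

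More tRNA genes had a summit in the over-expression library, although its list was shorter. In the control library 115 of 429 tRNA genes (26.8%, Wilson 95% interval 22.8 to 31.2%) had a summit within 1000 bp, and in the over-expression library 150 (35.0%, 30.6 to 39.6%). The background shares were 30.9% and 36.3% of the 39642 ends of protein-coding genes, and 10.6% and 6.78% of 1461664 windows of 2073 bp, the length searched at a typical tRNA gene, tiled over the same chromosomes. The tRNA share was therefore slightly under that of coding gene ends in each library. It was above that of the tiled windows, whose share moved the other way between the libraries. Within 200 bp of the gene the tRNA shares were 5.59% in the control and 7.46% in the over-expression library, and with summits of at least 4-fold enrichment 11% and 19.6%. Coding ends and tiles were not counted at these settings, so these shares have no background beside them.

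By gene, 91 tRNA genes (21.2%) had a summit in both libraries, against 25.4% of coding ends and 4.56% of tiled windows. The 59 with a summit in the over-expression library alone made up 13.8% (10.8 to 17.3%), against 10.9% of coding ends and 2.22% of tiled windows. The 24 with a summit in the control library alone made up 5.59% (3.79 to 8.19%), against 5.49% and 6.01%. The remaining 255 genes (59.4%) had none in either. Thus the over-expression-alone share lay a little above that of coding ends, and the control-alone share was close to every background. These intervals treat genes as separate, yet 11 control and 21 over-expression summits each served several tRNA genes.

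Of 4 other classes of non-coding genes, 3 gave lower shares than tRNA genes in both libraries. Of 1900 microRNA genes, 17.5% had a summit in the control library and 18.2% in the over-expression library. Of 1190 small nucleolar RNA genes, which guide RNA modification, the shares were 12.8% and 8.57%. The 149 small nuclear RNA genes, of the spliceosome and related complexes, gave 16.1% and 22.8%. The 29 ribosomal RNA genes gave 44.8% in each library, the only set of the 4 above tRNA genes in both.

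tRNA genes near a protein-coding gene end had summits most often. Of the 54 with a midpoint within 1000 bp of a coding end, 24 (44.4%, 32.0 to 57.6%) had a summit in the control library and 36 (66.7%, 53.4 to 77.8%) in the over-expression library. All 24 were among the 36. Thus 0 (0 to 6.64%) were in the control library alone and 12 (22.2%, 13.2 to 34.9%) in the over-expression library alone. Tiled windows as near a coding end gave 29.1% and 33.6%, with 6.2% in the control library alone and 10.7% in the over-expression library alone. Of the 96 tRNA genes farther than 1000 and up to 10000 bp away, 27 (28.1%) and 38 (39.6%) had a summit, against 13.2% and 9.64% of tiles. Of the 279 that were over 10000 bp away, 64 (22.9%, 18.4 to 28.2%) and 76 (27.2%, 22.4 to 32.7%) did, against 9.56% and 5.49% of tiles. The over-expression share was thus the higher in each distance class of tRNA genes, whereas in the tiles it was the higher in the nearest class alone. These tiles came from whole chromosomes and were not matched to the neighbourhood of tRNA genes.

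**Figure D1:**
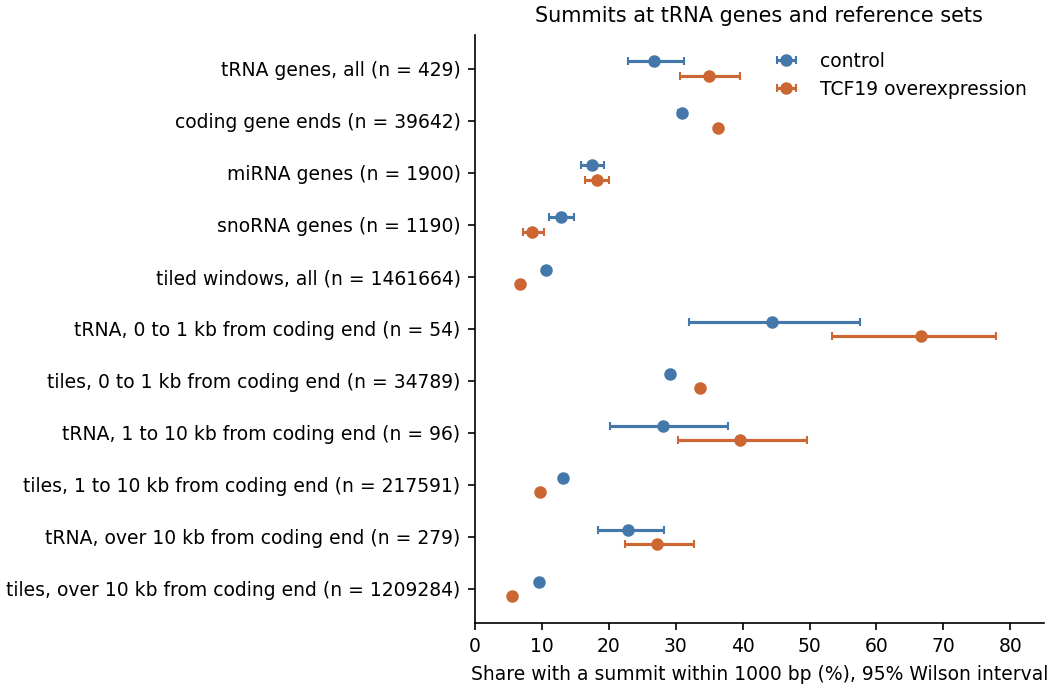
Share of genes or windows with a summit within 1000 bp, in percent, for the control and the TCF19 over-expression library, with 95% Wilson intervals as bars (counting error only); kb is 1000 bp. The upper 5 rows compare all tRNA genes with coding gene ends, 2 other short RNA classes and tiled windows; the lower rows split tRNA genes and tiles by distance to a coding end, where tRNA genes lie above their tiles in each class.

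The 12 tRNA genes near a coding end with a summit in the over-expression library alone lay beside 9 coding genes, 3 of which had an adjacent pair of them. TRF-GAA1-6 and TRN-GTT2-6, by NDUFS7 (a subunit of mitochondrial complex I), were within 1000 bp of the same over-expression summit of 24 reads. The control library had no summit within 22479 bp of the former. Beside DPP9, a dipeptidyl peptidase gene, TRG-TCC1-1 and TRV-CAC3-1 had 21 reads in the over-expression library and none in the control list. Among the 24 in both lists, TRR-TCT1-1, inside BCAR3, had 12 reads in the control library and 28 in the over-expression library. These summits lay on opposite sides of the gene, 320 and 626 bp from it. Its pair of summits within 100 bp of each other had 12 and 22. TRS-GCT4-2, by KNL1 (a kinetochore protein), had 9 and 20. TRE-TTC1-2, inside ELF1 (an ETS transcription factor), had 12 and 23, again at summits on opposite sides of the gene, 570 and 939 bp from it. Its pairs within 100 bp had 12 and 21, and 10 and 23. TRR-ACG2-1, by SACM1L, had 20 in both, and was the only gene of the 24 to reach 20 reads in the control library, where 11 of the 36 reached 20 in the over-expression library. The median of the strongest pileup per gene was 12 reads over the 24 and 18 over the 36.

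Of the 43 tRNA genes that lie inside a protein-coding gene, 13 (30.2%) had a summit in the control library and 21 (48.8%) in the over-expression library. Of the 386 outside, 102 (26.4%) and 129 (33.4%) did. The intervals of the inside genes, 18.6 to 45.1% and 34.6 to 63.2%, are wide and overlap those of the outside genes.

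Over all tRNA genes, summit density was highest some distance from the gene. A summit near several tRNA genes was counted once for each, as was the sequence searched. The Poisson intervals take these counts as separate and are therefore too narrow. Each library had 1 summit inside a tRNA gene body, a density of 3.10 summits per 100 kb searched (exact Poisson 95% interval 0.0785 to 17.3). Gene bodies add up to few bases, so this interval is wide. The genome averages were 5.60 in the control and 3.68 in the over-expression library. From 1 to 200 bp outside the gene the density was 13.4 (8.50 to 20.1) in the control and 19.2 (13.2 to 27.0) in the over-expression library. It peaked at 400 to 600 bp in the control library, at 19.2 (13.2 to 27.0), and at 200 to 400 bp in the over-expression library, at 29.7 (22.1 to 39.1). By 1500 to 2000 bp it was 9.32 and 6.53. It fell no lower in the bins beyond. In the farthest bin, which ended at 10000 bp, it was 10.1 and 8.72, still above the genome averages. At coding gene ends the density was highest in the first 200 bp, 27.2 and 42.5, and fell from there. The tRNA genes were also split by copies in the over-expression library. The 199 single-copy genes also had their highest density in the first 200 bp, at 25.1 (15.3 to 38.8), with 21.4 at 200 to 400 bp. The other 230 genes, with several family members or no family number, had 37 at 200 to 400 bp against 14.1 in the first 200 bp. At 200 to 400 bp their interval (25.6 to 51.6) overlaps that of the single-copy genes (12.4 to 34.2). In the same library, genes over 10000 bp from coding ends had 18.8 (11.6 to 28.8) in the first 200 bp and 19.7 at 200 to 400 bp. In the farthest bin they had 8.64 (7.58 to 9.8). In the control library these genes had 13.4 (7.52 to 22.2) in the first 200 bp and 17.9 (10.9 to 27.7) at 400 to 600 bp. Both intervals overlap that of their farthest bin, at 11.3 (10.1 to 12.6). How much of the excess over tiled windows is local to tRNA genes was not tested. Copies and distance were not separated.

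**Figure D2:**
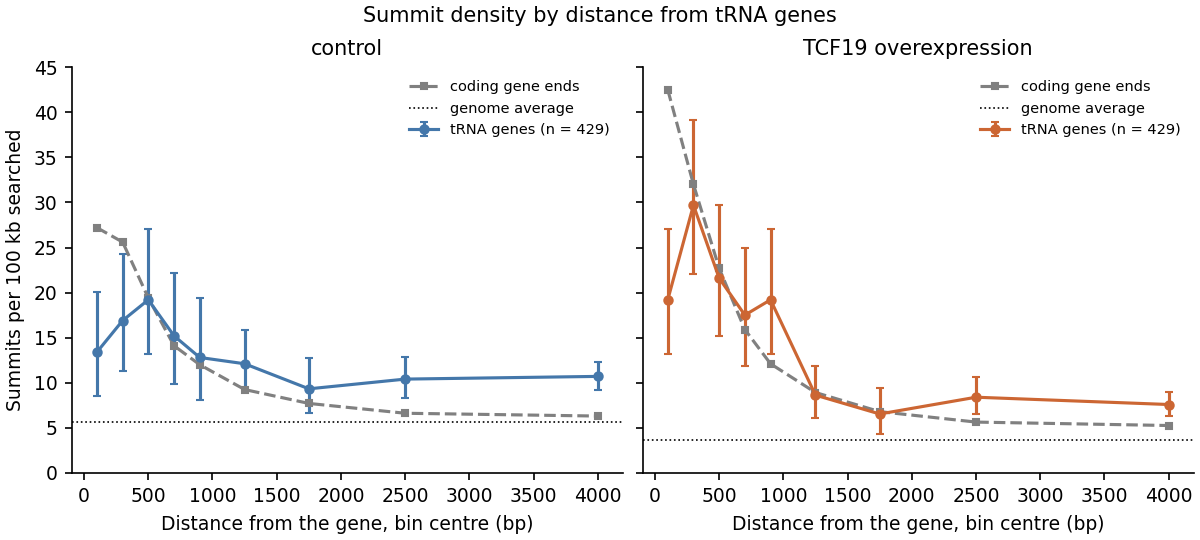
Summits per 100 kb of sequence searched (vertical axis) by distance from tRNA genes in bp (horizontal axis, bin centres), for each library, with exact Poisson 95% intervals as bars; grey squares are coding gene ends and the dotted line the genome average. In the over-expression library tRNA genes reach 29.7 at 200 to 400 bp, while coding ends start at 42.5 in the first 200 bp. A summit near several tRNA genes is counted for each of them, so the bars are too short.

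The intervals of the called peaks also covered points 300 bp away more often than the gene midpoint, but their order of positions was not the same, as the midpoint was covered more often than points at 1500 bp. The midpoint of the tRNA gene was covered by a peak in 20 of 429 genes (4.66%, 3.04 to 7.09%) in either library. Points 300 bp to each side were covered in 7.93% (6.30 to 9.93%) in the control library and 12.8% (10.7 to 15.2%) in the over-expression library, and points at 1500 bp in 3.26% and 3.03%. The coding gene end itself was covered in 14.2% and 22%. Any overlap of a peak with the tRNA gene was seen for 22 genes (5.13%) in the control and 32 (7.46%) in the over-expression library.

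The low cover at the midpoint was seen mainly in genes outside single-copy families. The 199 genes whose family has a single copy among the members were covered at the midpoint in 5.53% in the control and 6.53% in the over-expression library, and at 300 bp in 7.29% and 11.3%. The other 230 genes have a family of several members or a symbol without a family number. Their midpoint gave 3.91% and 3.04%, and 300 bp gave 8.48% and 14.1%. Identity of sequence was not checked across these genes. The midpoint intervals of these groups, 3.86 to 10.9% and 1.48 to 6.15% in the over-expression library, overlap. How reads with several equal placements were handled is not given in the sources used here, and its part in the dip was not tested. Summits within 1000 bp were no rarer in the larger group: 66 of 230 (28.7%) in the control and 85 (37.0%) in the over-expression library, against 49 of 199 (24.6%) and 65 (32.7%).

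Clustered tRNA genes had summits less often than scattered ones in both libraries. Genes no more than 100 kb apart were joined, which gave 124 clusters, of which 12 hold 8 genes or more. Of the 257 genes in these large clusters, 49 (19.1%, 14.7 to 24.3%) had a summit in the control and 61 (23.7%, 18.9 to 29.3%) in the over-expression library. Of the other 172 genes, 66 (38.4%, 31.4 to 45.8%) and 89 (51.7%, 44.3 to 59.1%) did. The 93 genes in the 33 clusters of 2 to 7 genes gave 34 and 47, and the 79 genes that stand alone gave 32 and 42. The order held over 10000 bp from coding ends, with 35 and 42 of 194 genes in large clusters against 29 and 34 of 85 outside them. Chromosome 1, where 51.8% of tRNA genes had a summit in each library, was not set apart in this split.

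**Figure D3:**
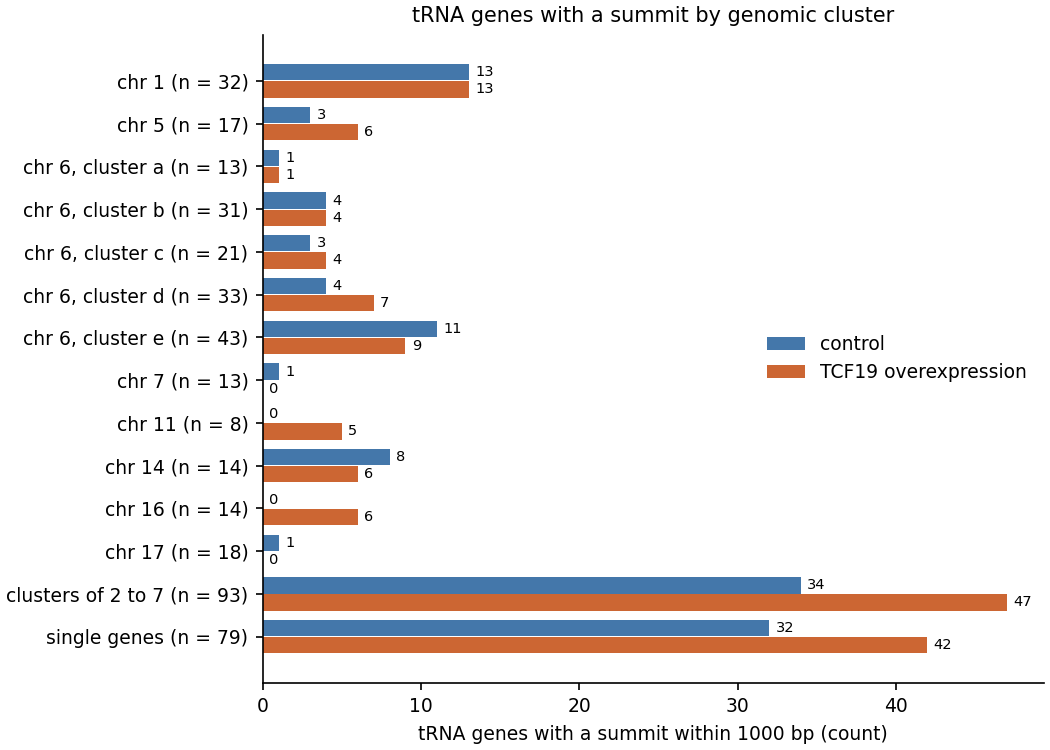
Number of tRNA genes with a summit within 1000 bp (horizontal axis) in the control and the TCF19 over-expression library, for the 12 clusters of 8 or more genes by chromosome and for the remaining genes. The chromosome 11 and 16 clusters have 0 in the control library and 5 and 6 in the over-expression library, and the chromosome 1 cluster has 13 in each.

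The cluster at chr1:161399700-161612029 holds 32 genes, among them 12 for glycine, 7 for leucine and 5 each for aspartate and glutamate. It had 13 genes with a summit in each library, 10 of them in both. Its strongest summit, within 1000 bp of TRE-CTC1-3 and TRG-TCC2-3, had 80 reads in the control library (63.4 to 99.6) and 85 (67.9 to 105.1) in the over-expression library, the highest pileup at any tRNA gene in either. TRL-CAG1-3 and TRG-GCC1-3 shared a summit of 45 and 44 reads, and TRL-CAG1-5 had 36 and 43. Tiled windows across this span also held summits often, 27.2% in the control and 19.4% in the over-expression library.

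At chr11:59550629-59566452, none of 8 tRNA genes had a control summit, and 5 had an over-expression summit. A summit of 28 reads (18.6 to 40.5) served TRV-TAC1-1, TRV-TAC2-1 and TRR-TCT3-2, with the nearest control summit 8607 bp from the first of them. TRK-TTT3-4 had 9 reads and TRF-GAA2-1 had 14, so these 5 genes rest on 3 summits. The span as a whole moved likewise: it held 0 control and 3 over-expression summits, and 0% and 33.3% of its 9 tiled windows had one. The nearest coding gene end is of OSBP, an oxysterol-binding protein, 23062 bp from TRR-TCT3-2.

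At chr16:3150674-3192060, which holds 14 genes, 7 of them for proline and 5 for lysine, 0 had a control summit and 6 an over-expression summit. TRP-CGG1-2 and TRP-TGG3-5 had 19 reads each, TRP-AGG2-7 and TRP-TGG3-4 shared a summit of 17, TRP-AGG2-8 had 16 and TRK-CTT3-1 had 15. The 6 genes rest on 5 summits. Of the tiled windows of this span 4.76% had a control and 19% an over-expression summit, 1 and 5 summits in all. A control summit stood 1313 bp from TRP-CGG1-2, just past the distance limit, and those nearest to the other 5 genes were over 10000 bp away. In both of these clusters the order between libraries was stable or equal under each alternative setting tried: on chromosome 11 the over-expression count was the higher in 9 of 10 and equal in 1, on chromosome 16 the higher in 8 and equal in 2.

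Chromosome 6 holds 154 tRNA genes, and 25 (16.2%) had a summit in the control and 28 (18.2%) in the over-expression library. Its 5 large clusters, named a to e in order along the chromosome, were not alike. Cluster a, chr6:26286526-26331515, with 13 genes including 3 for initiator methionine, had 1 gene with a summit in each library. Cluster b, chr6:26521208-26828299, with 31 genes, 12 of them for alanine, had 4 and 4. Cluster c, chr6:27020346-27335062, with 21 genes, had 3 and 4, of which 1 was shared. Cluster d, chr6:27478812-27795932, with 33 genes including 9 for serine, had 4 and 7. Cluster e, chr6:28474552-28989083, with 43 genes including 15 for alanine, had 11 and 9. The order against the tiles of the same span was not the same in both libraries. In the control library cluster a (7.69% of genes against 13% of tiles), cluster c (14.3% against 16.3%) and cluster d (12.1% against 18.2%) lay below their tiles, and clusters b and e above. In the over-expression library all 5 lay above their tiles, in cluster d with 21.2% (10.7 to 37.8%) of genes against 14.9% of tiles. The counts are small, and the interval of each of these clusters included its tile share in both libraries.

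The cluster at chr5:181097070-181222467, with 17 genes, 8 of them for valine, had 3 genes with a control and 6 with an over-expression summit. TRV-AAC1-2, TRV-AAC1-3 and TRV-AAC1-4 had 15 reads each in the control library and 15, 15 and 17 in the over-expression library. TRP-TGG3-1 (22 reads) and the neighbours TRL-AAG1-2 and TRV-CAC1-3 (18 reads, shared) had a summit in the over-expression library alone. The tiles of this span gave 17.7% in the control and 24.2% in the over-expression library. Its genes gave 17.6% (6.19 to 41.0%) and 35.3% (17.3 to 58.7%). On chromosome 14, chr14:20609336-20684087, the direction was the other: 8 of 14 genes in the control and 6 in the over-expression library, the 6 being part of the 8. The tiles of that span went the same way, 29.7% and 21.6%, against 57.1% and 42.9% of genes.

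In the remaining large clusters, summits within 1000 bp of a tRNA gene were nearly absent, although the spans held others. At chr7:149546540-149707740, 12 of 13 genes encode cysteine tRNA, and the only summit within 1000 bp of a tRNA gene, of 13 reads at TRC-GCA9-3, was in the control library. The span held 19 control and 12 over-expression summits, in 20.5% and 12.8% of its tiles. At chr17:8119155-8227064, 18 genes lie among coding genes such as PER1, a clock gene, and 7 of them are within 1000 bp of a coding end. Within 1000 bp of these tRNA genes there was a single summit, of 12 reads at TRP-CGG1-3 in the control library, while the span held 10 control and 7 over-expression summits, in 15.1% and 11.3% of its tiles.

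Outside chromosomes 1 and 6 the libraries stood furthest apart. Chromosome 1 has 85 tRNA genes, of which 44 (51.8%, 41.3 to 62.1%) had a summit in each library and 38 in both. The 190 genes on chromosomes other than 1 and 6 had 46 (24.2%, 18.7 to 30.8%) in the control and 78 (41.1%, 34.3 to 48.2%) in the over-expression library. Of the 59 genes with an over-expression summit alone, 6 were on chromosome 1, as were 6 of the 24 with a control summit alone. Coding ends and tiles were not counted by chromosome, so this split has no background share beside it. Chromosome and distance from coding ends were not separated.

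By amino acid, asparagine genes had summits most often in both libraries. Of 21 asparagine genes 13 (61.9%, 40.9 to 79.2%) had a control summit and 14 (66.7%, 45.4 to 82.8%) an over-expression summit. Of these genes 17 are on chromosome 1, where 12 and 11 had one, so amino acid and chromosome are largely the same split there. TRN-GTT4-1 led them with 34 reads in the control and 35 in the over-expression library, at summits in different places. All 5 glutamine genes on chromosome 1 had a summit in both libraries, against 3 and 4 of the 14 elsewhere. Glycine genes had 13 and 16 of 30, and glutamate genes 7 and 8 of 15.

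Arginine genes had the widest gap among amino acids with over 10 genes. Of 26, 5 (19.2%, 8.51 to 37.9%) had a control summit, and 14 (53.8%, 35.5 to 71.2%) an over-expression summit. All 5 were among the 14, and 9 genes were in the over-expression library alone. They do not sit together: the 9 were on chromosomes 6, 7, 9, 11, 15 and 17. TRR-CCT1-1, TRR-CCT2-1 and TRR-TCG3-1, inside KCTD2 on chromosome 17, were within 1000 bp of 1 summit of 22 reads, and TRR-TCT3-2 shared the 28-read summit on chromosome 11. TRR-TCT3-1 by SLC27A4 had 18 reads, TRR-TCG1-1 by POLG had 16, TRR-CCT4-1 by FMC1 had 13, TRR-CCG2-1 had 11 and TRR-TCT5-1 had 9. Of the 26 arginine genes 8 were within 1000 bp of a coding end, beside 54 of all 429 tRNA genes. Of the 12 over 10000 bp away, 1 had a control and 4 an over-expression summit. Amino acid and distance were not separated.

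Tryptophan genes had 0 of 7 in the control library, whose interval reaches 35.4%, and 3 in the over-expression library: TRW-CCA5-1 and TRW-CCA4-1 with 17 reads and TRW-CCA2-1 with 13. Threonine genes had 1 and 4 of 20, none of them in both libraries. Proline genes had 6 and 10 of 20, phenylalanine 4 and 6 of 11, histidine 2 and 4 of 9, serine 5 and 8 of 26, isoleucine 5 and 6 of 23 and tyrosine 4 and 5 of 13. Valine genes had 12 and 13 of 30.

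Equal counts in the libraries were found for leucine (12 of 32), methionine in elongation (2 of 11), aspartate (2 of 13), cysteine (4 of 29) and lysine (3 of 27). The count did not mean the same genes: of the lysine genes 0 were in both libraries. Alanine, the largest group, was the only amino acid with the higher count in the control library, 7 against 6 of 37. Initiator methionine genes, whose tRNA starts translation, had 0 and 1 of 8, the latter TRX-CAT1-7 with 13 reads. The 2 selenocysteine genes had none in either library.

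**Figure D4:**
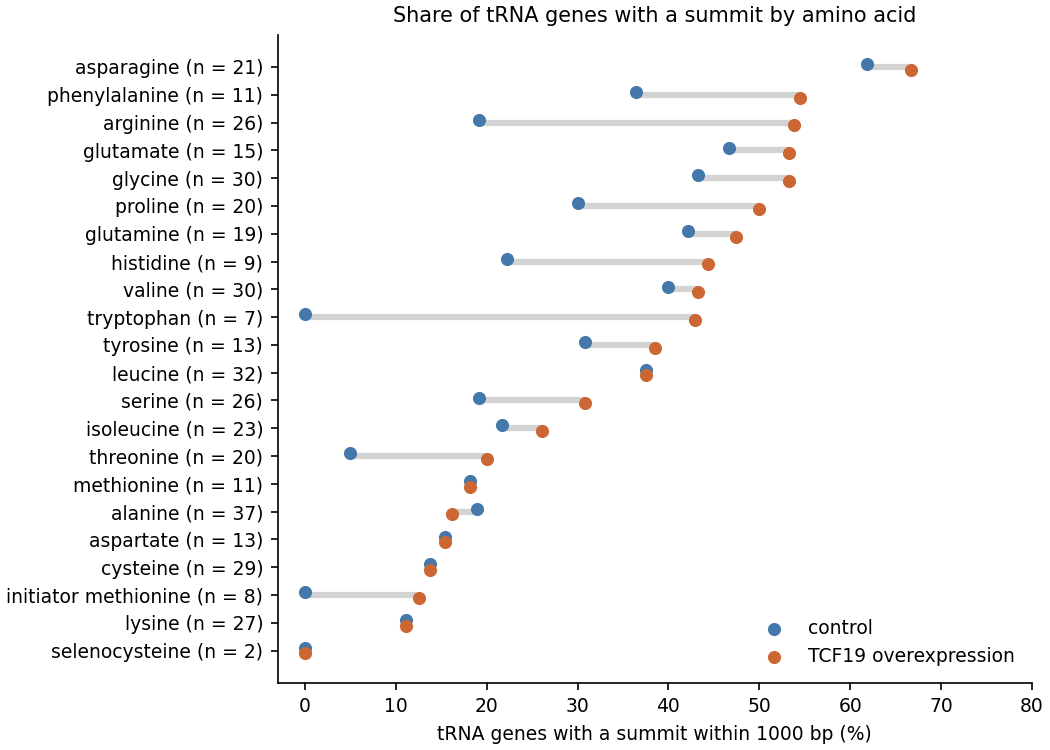
Share of tRNA genes with a summit within 1000 bp (horizontal axis, percent) for each amino acid, in the control and the TCF19 over-expression library, joined by a grey line; the number of genes is beside each name. Arginine (19.2 and 53.8%) and tryptophan (0 and 42.9%) have long lines, while leucine, lysine, cysteine, aspartate and methionine have none.

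In size, summits at tRNA genes were like other summits. The 121 distinct control summits had a median pileup of 13 reads (range 6 to 80), against 12 over all control summits and 14 at coding ends. The 161 over-expression summits had a median of 15 (6 to 85), against 13 and 16. The authors' fold enrichment had a median of 3.83 at tRNA genes and 3.87 over all summits in the control library, and of 4.08 and 4.05 in the over-expression library. Local background under the summit, as a multiple of the genome average, was 1.55 against 1.21 over all control summits, and 1.99 against 1.58 over all over-expression summits. Of the control summits at tRNA genes 22 (18.2%) were also within 1000 bp of a coding end, and of the over-expression summits 42 (26.1%).

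Among genes with a summit in both libraries, the 8 ranked highest by their lower library were all on chromosome 1. Beside the genes of the large chromosome 1 cluster already given, these are TRG-CCC5-1 with 75 reads in the control and 64 in the over-expression library, TRE-TTC3-1 with 46 and 47, and TRN-GTT4-1 with 34 and 35. At TRE-TTC3-1 and TRN-GTT4-1 the strongest summit was not at the same place in both libraries. Summits within 100 bp of each other had 46 and 41 reads at TRE-TTC3-1. At TRN-GTT4-1 such pairs had 34 and 29, and 30 and 35. TRE-TTC4-1, also on chromosome 1, tied with TRN-GTT4-1 by its lower library, with 44 and 34 reads, and came after it by fold enrichment. The local background there was high, at TRG-CCC5-1 8.39 times the genome average in the control and 9.72 times in the over-expression library, beside fold enrichments of 5.33 and 4.37. Its part in these pileups was not tested.

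Among genes with a summit in the over-expression library alone, the 3 that share the chromosome 11 summit of 28 reads ranked first. TRT-AGT1-3 on chromosome 19, 1294 bp from an end of WDR88, followed with 24 reads (15.4 to 35.7), and its nearest control summit was 11234 bp away. Among those with a control summit alone, TRV-AAC1-1 on chromosome 3, near MYNN, had 24 reads (15.4 to 35.7), and the nearest over-expression summit was 1218 bp from it. TRD-GTC2-1 and TRL-CAG1-1, in the chromosome 1 cluster, shared a control summit of 19 reads. TRG-GCC3-1, inside VAC14, had 17, TRK-TTT3-3 had 15, and TRL-TAG2-1 and TRL-CAA2-1 had 14 each. Absence from a list is not absence of reads. Had the other library held the same depth-scaled occupancy at that point, the call would have been made with a probability of at least 0.95 at 30 of the 59 over-expression-alone genes and at 1 of the 24 control-alone genes. These counts are not on the same scale, as depth differed and the lowest −log10 p was 2.82 in the control and 3.01 in the over-expression list. The reads used had passed the call in their own library, and no background share stands beside these counts. Further, 12 of the 59 and 6 of the 24 had a summit of the other library farther than 1000 and up to 2000 bp away.

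Where both libraries had a summit within 100 bp of the same place, heights could be compared. There were 56 such pairs at tRNA genes, and the depth-scaled pileup was higher in the over-expression library in 38 of them (67.9%), beside 58.7% of all pairs and 78.1% of all pairs at coding ends. The median log2 ratio of over-expression to control was 0.25 (range -0.85 to 1.35), beside 0.15 over all 41014 pairs. The 12 pairs that are also within 1000 bp of a coding end had a median log2 ratio of 0.50, beside 0.34 over all 4625 pairs at coding ends. The 44 others had 0.15, beside 0.06 over all 36299 pairs away from coding ends. Each tRNA median stood above that of its background, and no test of this was run. On chromosome 1 the 28 pairs had a median log2 ratio of 0.15, and the 28 on other chromosomes 0.31.

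The widest rise in a pair was at TRE-TTC1-2, from 10 to 23 reads, a log2 ratio of 1.35, and a further pair at the same gene went from 12 to 21. TRS-GCT4-2 went from 9 to 20 reads, the pair by TRA-CGC3-1 and TRG-GCC2-2 from 6 to 12 (log2 ratio 1.15) and TRR-TCT1-1 from 12 to 22 (1.02). At the low end TRN-GTT2-8 went from 20 to 10 (-0.85) and TRY-GTA7-1 from 20 to 11 (-0.72). For a pileup of 9 the exact Poisson interval is 4.1 to 17.1 reads and for 20 it is 12.2 to 30.9, so even the widest pairs have intervals that overlap.

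**Figure D5:**
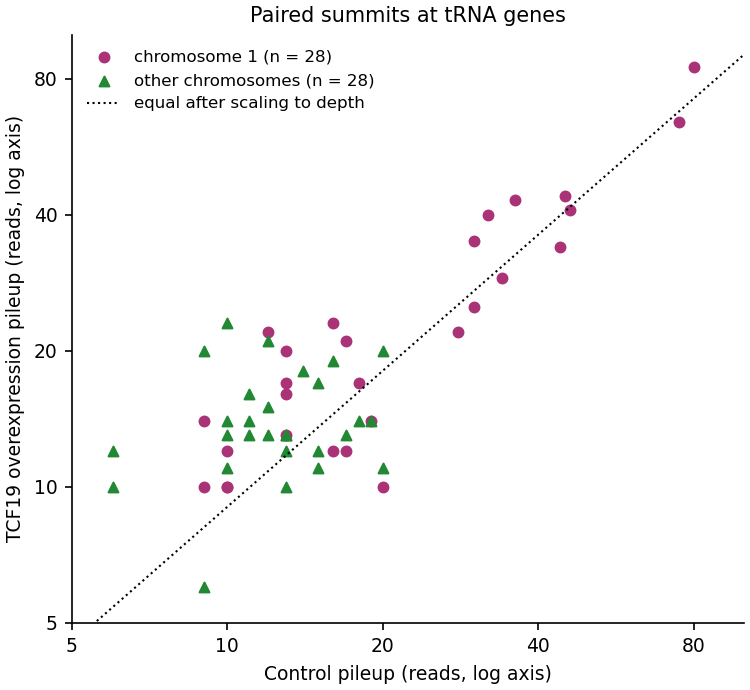
Pileup in reads in the control (horizontal) and the TCF19 over-expression library (vertical), both on log axes, for the 56 pairs of summits within 100 bp of each other at tRNA genes; circles are chromosome 1 and triangles other chromosomes, and the dotted line marks equality after scaling to depth. Pairs above 40 reads in the control library are all on chromosome 1 and lie near the line, while 38 of the 56 lie above it.

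Members at the distance limit show how it divides genes. In the control library TRL-CAA2-1 (977 bp) and TRA-AGC6-1 (998 bp) were the last inside, and TRD-GTC2-11 (1030 bp) and TRE-CTC1-7 (1031 bp) the first outside. In the over-expression library TRV-CAC3-1 (974 bp) and TRE-TTC4-2 (983 bp) were inside, and TRP-AGG2-1 (1005 bp) and TRP-TGG3-3 (1020 bp) outside.

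The machinery that reads and processes tRNA genes was looked at through lists of protein-coding genes, for which a summit within 1000 bp of either end was counted; over all 19821 coding genes 54.9% had one in the control and 65.2% in the over-expression library. Of 18 subunits of RNA polymerase III, 8 (44.4%) and 12 (66.7%) did, the 8 being part of the 12. POLR3C had 18 reads in the control and 27 in the over-expression library, POLR3G 15 and 25, and CRCP 10 and 23. Of the largest subunits POLR3A had none while POLR3B had 10 and 15. The over-expression summit of 19 reads at POLR3E serves TRL-AAG2-4 as well, which lies 229 bp from the end of that gene. Both shares of this list were near or below the background.

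Of 17 genes of TFIIIB, TFIIIC and their regulators, 9 and 12 had a summit. TBP, the TATA-binding protein shared by the polymerases, had 8 and 21 reads, GTF3C4 had 12 and 22 at opposite ends of the gene, and BRF2, a TFIIIB subunit used at genes such as that of U6, had 21 in the over-expression library alone. BRF1, its counterpart at tRNA genes, and MAF1, a repressor of RNA polymerase III, had none in either. Of 20 genes of tRNA processing and export, 15 (75%, 53.1 to 88.8%) and 17 (85%, 64.0 to 94.8%) had a summit, the highest shares among these lists. XPOT, the tRNA exporter, had 17 and 23 reads, POP7, of RNase P, had 12 and 24, and ELAC2, which trims the 3′ end, had 15 and 15. RPP14 had 23 in the over-expression library alone.

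Other genes transcribed by RNA polymerase III, 20 in all, were searched over the gene as tRNA genes were. In the control library 7 (35.0%, 18.1 to 56.7%) and in the over-expression library 13 (65.0%, 43.3 to 81.9%) had a summit, with 8 in the latter alone and 2 in the former alone. The U6 genes RNU6-1 and RNU6-2 had 23 reads each in the over-expression library and no control summit, while RNU6-8 had 18 in the control library alone. RMRP, the RNA of RNase MRP, had 18 and 15 reads. RN7SK, which holds back transcription elongation, had 8 and 13. RPPH1, the RNA of RNase P, had 13 in the over-expression library alone. The intervals of these shares overlap each other. The control one also overlaps that of tRNA genes, and the over-expression one lies above that of tRNA genes (30.6 to 39.6%), in each case over only 20 genes. This list was not split by distance from coding ends. The tRNA genes within 1000 bp of a coding end had 44.4% in the control and 66.7% in the over-expression library.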

How the data were processed

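ChIP-seq with a TCF19 antibody gave 1 peak list for each of 2 libraries, grouped by the genotype label. The submitters' processing notes name BWA 0.7.12, MACS2 2.1.0 and hg38; settings, treatment of duplicate reads and any input control were not given in those sources. Each deposited peak has a score, a fold enrichment (a ratio of pileup to local background), −log10 p and q values and a summit offset. The lowest deposited −log10 q was 1.30 in both lists, a q-value of 0.05.

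A summit was placed at the peak start plus its offset. Pileups were recovered from the deposited fold and −log10 p on the Poisson model of the caller, within a misfit of 0.001 (99.998% of control and 99.997% of over-expression summits; 4 and 3 were not recovered); this was tested on simulated data. Ratios between libraries were scaled by the background ratio of 0.903. The RefSeq table (GRCh38.p14, the hg38 build) lists 443 tRNA rows; 14 that carry scaffold coordinates were dropped, and 22 mitochondrial tRNA genes were not used. It gives no strand for tRNA genes; strand was read from sequence for the 14 whole genes.

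Genes, lists and members were chosen with earlier results of these data known. Named tRNA genes are the 8 highest by pileup with a summit in both libraries, in the over-expression library alone and in the control library alone, those nearest the distance limit, those of every large cluster and amino acid with a summit that the text turns on, and those with a sequence; the others named (near coding ends, in paired summits) were chosen after their values were seen. Shares have Wilson and pileups exact Poisson 95% intervals. Alternatives were a distance of 200, 500 or 2000 bp, equal list lengths, a fold of 4 or more, low local background, distance from coding ends, merged loci, single-copy genes, peak overlap in place of the summit and leaving out chromosome 1. Python 3.11.15, numpy 2.4.6, pandas 2.3.3 and scipy 1.17.1 were used.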

Additional observations from a re-analysis of the deposited data

How the results depend on the processing

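The share of tRNA genes with a summit was higher in the over-expression library under all 11 alternatives, and its share of genes with a summit in that library alone exceeded the control-alone share in all 11. The alternatives were counted for tRNA genes only. Whether coding ends or tiles keep or change their order under them is not known. Levels moved with the distance searched. At 200, 500 and 2000 bp the control share was 5.59, 15.6 and 39.6%, and the over-expression share 7.46, 22.1 and 43.4%. Control-alone shares at these distances were 3.26, 3.73 and 10%, and at 200 and 500 bp the over-expression-alone shares were 5.13 and 10.3%. With summits of at least 4-fold, the control share was 11%, the over-expression share 19.6% and the control-alone share 2.56%. With equally long lists of the highest-fold summits the control share was 18.6%, the control-alone share 3.03% and the over-expression-alone share 19.3%. With local background at most 3 times the genome average, the over-expression share was 28.2% and its alone share 10.5%. Over 2000 bp from coding ends the over-expression share was 30.3%. Without chromosome 1, an alternative chosen after seeing the data, the control share was 20.6%. The cause of these moves was not tested. Of the 44 values, 21 moved beyond the counting interval and 23 did not.

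No paired analysis was possible because each group has 1 library. Depth limits single genes: of the strongest summits per tRNA gene, 90 of 103 distinct control ones and 103 of 129 over-expression ones hold under 20 reads, and reads below the call are not in the lists. Clusters were not counted under the merged-loci alternative.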
